A study of Mus musculus with 4 samples.

Results

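The genes of de novo fatty acid synthesis and fatty acid desaturation were examined by RNA-seq in 4 stably transfected 3T3-L1 lines, 8 days after differentiation began. The set held 9 of the 13085 genes measured and was chosen by gene name: Acly, Acaca, Fasn, Me1, Scd1, Scd2, Elovl5, Elovl6 and Srebf1. Each of the 9 matched 1 deposited row, and the rows of Acly and Me1 each joined 2 RefSeq transcripts. 3T3-L1 is a mouse preadipocyte line that fills with lipid when given adipogenic hormones. FLAG-CACUL1 cells stably expressed FLAG-tagged CACUL1, a cullin-like protein studied here as a regulator of the adipogenic receptor PPARγ, and FLAG cells carried the empty vector. sh-CACUL1 cells stably expressed a short hairpin against CACUL1, and sh-Luc cells a hairpin against luciferase. The FLAG lines were selected with G418 and the hairpin lines with hygromycin B, in each case as drug-resistant colonies after transfection, and how many colonies make up a line is not given in the sources used here. All 4 lines were differentiated with rosiglitazone (5 µM), IBMX (0.5 mM), dexamethasone (1 µg/ml) and insulin (5 µg/ml) in 10% FBS, then given insulin every 2 days. Each line gave 1 library. No difference below therefore has a replicate or a test, and each is given as values.

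De novo fatty acid synthesis turns citrate into fat. ATP citrate lyase (Acly) cleaves citrate to acetyl-CoA, acetyl-CoA carboxylase (Acaca) makes malonyl-CoA, and fatty acid synthase (Fasn) joins these units to palmitate with NADPH, part of which comes from malic enzyme (Me1). Elovl6 lengthens palmitate to stearate, and the stearoyl-CoA desaturases Scd1 and Scd2 place a double bond in stearate to give oleate and in palmitate to give palmitoleate, the main unsaturated fatty acids of stored triglyceride. Elovl5 lengthens polyunsaturated fatty acids. Srebf1 encodes SREBP1, a transcription factor of the pathway that insulin activates in fat and liver.

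The deposited values were FPKM, fragments scaled to transcript length and library size, so levels of different genes can be compared per length. They summed to between 372148 and 473584 per library. The spacing of low FPKM values gave an estimated depth of 14300000 to 24200000 fragments per library, with sh-Luc the deepest. At these estimates between 291 fragments (Elovl6 in FLAG) and 134421 fragments (Scd1 in FLAG) stood behind each value, and the widest 95% counting interval was ±11.7% of the value. These intervals cover counting error only and not the spread between cultures. Cacul1 itself had 9.61 FPKM in FLAG, 11.8 FPKM in FLAG-CACUL1, 10.2 FPKM in sh-Luc and 5.39 FPKM in sh-CACUL1, so the hairpin line was the lowest and the FLAG-CACUL1 line was close to FLAG. The paper checked CACUL1 protein in its stable lines by western blot. Whether reads of the tagged construct count toward this RNA value is not given in the sources used here. Fold changes are log2 ratios of FPKM + 1 between a line and the control with its own vector, and a gene was called at 2-fold or more. Over all genes the median was 0.09 for FLAG-CACUL1 against FLAG and -0.30 for sh-CACUL1 against sh-Luc. Median-of-ratios scaling, which divides each library by a size factor, brought these medians to 0.013 and 0.0079. The ratio of size factors alone amounts to -0.14 and 0.47 on the log2 scale. Counts after this scaling (after scaling, below) are given where they differ from those as deposited.

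The levels of adipocyte markers differed widely between the lines. The labels call the cells preadipocytes, yet Fabp4, a fatty acid carrier of adipocytes, had 320 FPKM or more in every line. All 10 adipocyte markers examined (Adipoq, Fabp4, Plin1, Cidec, Lpl, Cd36, Cebpa, Pparg, Lipe and Pnpla2) passed the cut-off downward in FLAG-CACUL1 and upward in sh-CACUL1. Of all genes 1.69% had this pattern. Set against the other control, some markers went the other way and the rest kept their direction. Lpl and Cebpa were above sh-Luc in FLAG-CACUL1, and Plin1, Lpl, Cebpa and Pparg were below FLAG in sh-CACUL1. Of these reversals only that of Cebpa in sh-CACUL1 passed the cut-off. The summed level of the 10 markers was 7603 FPKM in FLAG, 934 FPKM in FLAG-CACUL1, 1819 FPKM in sh-Luc and 17226 FPKM in sh-CACUL1. Of the 9 preadipocyte or fibroblast markers with a row, 4 were at least 2-fold higher and 1 lower in FLAG-CACUL1. Of all genes 7.51% were higher and 7.22% lower there. In sh-CACUL1 2 of these markers were higher and 6 lower, where 4.94% and 16.4% of all genes were. After scaling 5 were lower, where 7.45% of all genes were. The sum of these 9 markers was 7962, 9856, 5844 and 1678 FPKM in the same order of lines. Macrophage, endothelial and hepatocyte markers had 4 rows among 14 genes. Their highest value was that of Cd68, a lysosomal protein of macrophages, with 16.2 FPKM in FLAG and at most 1.44 FPKM in the other lines. In bulk RNA, fewer cells of a type and less RNA per cell cannot be told apart. The part of these marker differences in the results below was not tested.

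Scd1 dominated the set in the 2 lines with high adipocyte markers and was a minor gene in the others. Summed over the 9 genes, the level was 2596 FPKM in FLAG, 235 FPKM in FLAG-CACUL1, 407 FPKM in sh-Luc and 1341 FPKM in sh-CACUL1. Scd1 made up 73.7% of the sum in FLAG and 63.9% in sh-CACUL1, against 8.49% in FLAG-CACUL1 and 8.93% in sh-Luc. Relative to its own control the sum was 11.0-fold lower for FLAG-CACUL1 and 3.30-fold higher for sh-CACUL1. Without Scd1 and Scd2 these differences shrank to 1.45-fold lower and 1.57-fold higher. The remaining enzymes and Srebf1 summed to between 123 FPKM in FLAG-CACUL1 and 295 FPKM in sh-CACUL1.

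**Figure D1:**
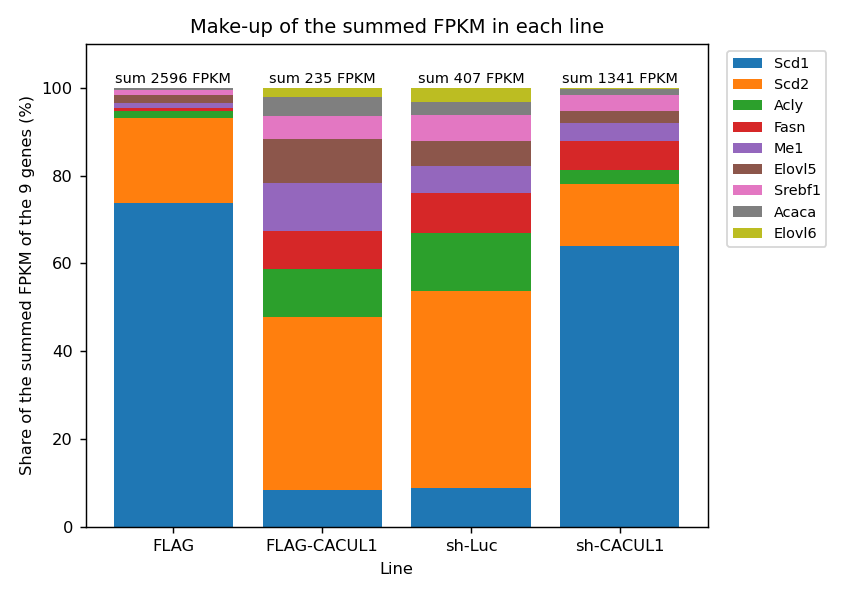
Share of each gene in the summed FPKM of the 9 genes (vertical axis, percent), with 1 stacked bar per line and the sum in FPKM above each bar. Scd1 fills 73.7% of the FLAG bar and 63.9% of the sh-CACUL1 bar, and under 10% of the other bars.

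At the 2-fold cut-off 3 of the 9 genes (Scd1, Scd2 and Srebf1) lay below FLAG in the FLAG-CACUL1 line and 0 lay above. Among all 13085 genes 7.22% were lower and 7.51% higher in this comparison. In sh-CACUL1 3 genes (Fasn, Me1 and Scd1) were higher than in sh-Luc, against 4.94% of all genes, and 1 (Elovl6) was lower, against 16.4% of all genes. After median-of-ratios scaling 6 of the 9 were higher in sh-CACUL1, with Acaca, Elovl5 and Srebf1 added, where 9.41% of all genes were, and Elovl6 was again lower, where 7.45% were. Under this scaling 4 genes were lower in FLAG-CACUL1, with Elovl5 added, where 8.93% of all genes were, and 0 were higher, where 5.77% were. Over the 9 genes the log2 values had medians of -0.64 (FLAG-CACUL1) and 0.70 (sh-CACUL1). Scd1 alone passed the cut-off downward in FLAG-CACUL1 and upward in sh-CACUL1, a pattern held by 1.69% of all genes. Srebf1, Me1, Elovl5 and Scd2 had the same signs with a smaller change in at least 1 of the comparisons, so 5 of 9 showed these signs at any size, as did 16.1% of all genes. Fasn and Acaca were above their control in both comparisons, Acly was below in both, and Elovl6 had the opposite signs, higher in FLAG-CACUL1 and lower in sh-CACUL1. After scaling the signs of Acaca in FLAG-CACUL1 (-0.01) and Acly in sh-CACUL1 (0.16) changed.

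**Figure D2:**
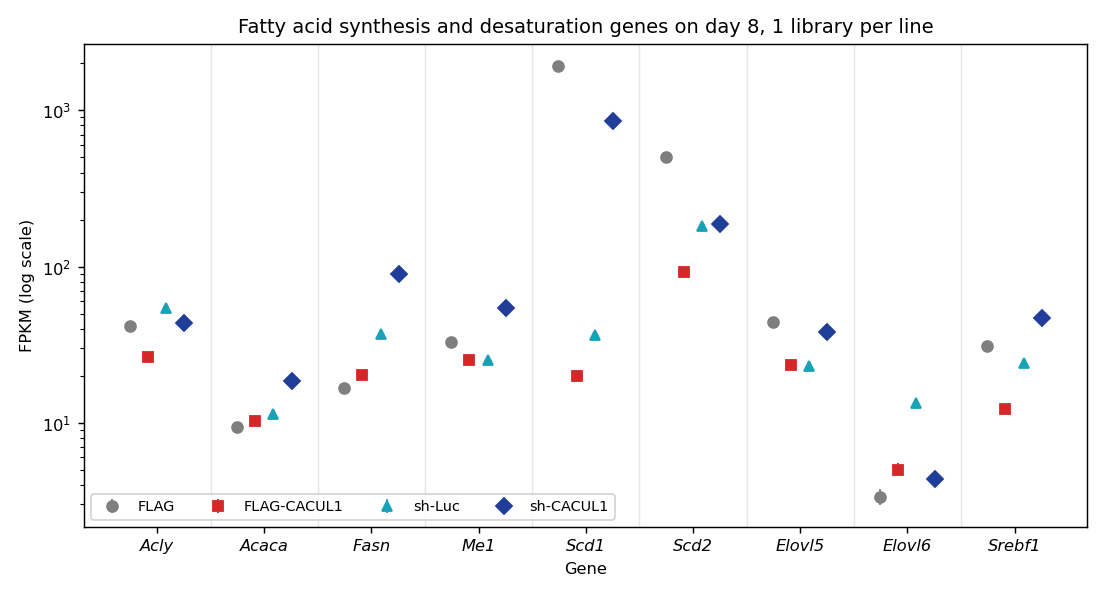
FPKM of the 9 genes (vertical axis, log scale) in the 4 lines, 1 point per library, with bars for the 95% counting interval where it is wider than the symbol. Scd1 ranges from 19.9 to 1914 FPKM, whereas Acaca, Acly and Elovl5 each span at most 2.08-fold over the lines.

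Scd1 (NM_009127), at 44394455 to 44407879 of chromosome 19 (GRCm38, minus strand), encodes the main stearoyl-CoA desaturase of fat and liver. It had 1914 FPKM in FLAG, 19.9 FPKM in FLAG-CACUL1, 36.3 FPKM in sh-Luc and 857 FPKM in sh-CACUL1. FLAG and sh-CACUL1 were high, where Scd1 ranked 21 and 62 among all genes of the library, and FLAG-CACUL1 and sh-Luc were low, where it ranked 3347 and 1998. In FPKM, FLAG-CACUL1 was 95.9-fold below FLAG (log2 fold change -6.51), and sh-CACUL1 was 23.6-fold above sh-Luc (log2 fold change 4.52). Between the controls, Scd1 was 52.7-fold higher in FLAG than in sh-Luc. This gap was smaller than that of FLAG-CACUL1 from FLAG and larger than that of sh-CACUL1 from sh-Luc.

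Scd2 (NM_009128), on the plus strand of chromosome 19 from 44293674 to 44306864, encodes a desaturase that is widely expressed and prominent in preadipocytes and brain. It had 503 FPKM in FLAG, 92.1 FPKM in FLAG-CACUL1, 182 FPKM in sh-Luc and 188 FPKM in sh-CACUL1. Scd2 thus had the same order of lines as Scd1 over a narrower range. FLAG-CACUL1 was 5.46-fold below FLAG (log2 fold change -2.44), but sh-CACUL1 and sh-Luc were close, at a log2 fold change of 0.05, or 0.52 after scaling. The balance of the desaturases turned over between the lines. Scd1 was 3.80 times Scd2 in FLAG and 4.55 times in sh-CACUL1, whereas Scd2 was 4.62 times Scd1 in FLAG-CACUL1 and 5.00 times in sh-Luc.

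Scd1 and Scd2 lie beside Scd3 and Scd4 on chromosome 19, and similar paralogs can share reads. The coding sequences of Scd1 and Scd2 were identical at 90.4% of aligned bases, and those of Scd1 and Scd3 at 91.5%. The 4 coding stretches here show how alike they are. They are the first 60-base window within 1 exon that has the median number of differences between Scd1 and Scd3, and capitals mark bases that differ from Scd1. All lie in exon 2, at chr19:44406605-44406664 (minus strand) for Scd1, chr19:44295009-44295068 for Scd2, chr19:44215507-44215566 for Scd3 and chr19:44334084-44334143 for Scd4 (plus strand) of GRCm38.
Scd1: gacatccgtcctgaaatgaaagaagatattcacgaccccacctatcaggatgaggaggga
Scd2: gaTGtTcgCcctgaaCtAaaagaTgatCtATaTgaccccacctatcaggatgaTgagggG
Scd3: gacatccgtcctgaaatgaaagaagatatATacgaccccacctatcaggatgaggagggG
Scd4: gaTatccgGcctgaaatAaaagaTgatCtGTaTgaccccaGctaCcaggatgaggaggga
In this window Scd2 differed from Scd1 at 13 bases, Scd4 at 10 and Scd3 at 3. Over whole transcripts, which include long untranslated ends, the overlap was smaller. Of the 30-base stretches of Scd1, 5.44% occurred in Scd2 and 6.09% in Scd3, and the longest shared runs were 147 and 185 bases. Of 100-base stretches, 1.01% and 1.82% were shared. How reads that match more than 1 of these genes were counted is not given in the sources used here.

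Scd3 (NM_024450), a desaturase first described in skin, followed Scd1 at a far lower level, with 12.0 FPKM in FLAG, 0.0862 FPKM in FLAG-CACUL1, 0.276 FPKM in sh-Luc and 3.85 FPKM in sh-CACUL1. Scd3 was between 0.432% and 0.761% of Scd1 in the 4 lines, the lowest share resting on few fragments. The part of shared reads in this was not tested. Scd4 (NM_183216), a heart desaturase, had 1.06 FPKM in FLAG and at most 0.325 FPKM elsewhere. In FLAG-CACUL1 an estimated 4 fragments stood behind Scd3 and 2 behind Scd4, so no fold is given for them.

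**Figure D3:**
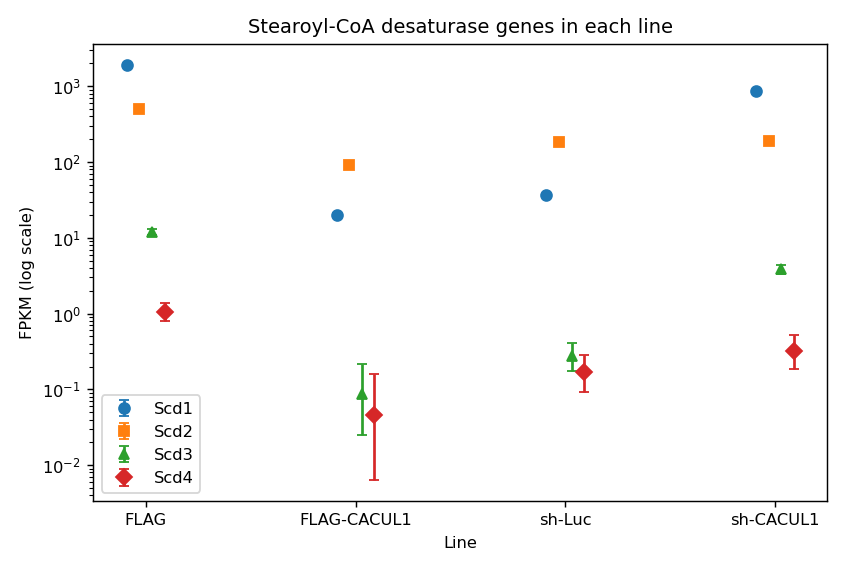
FPKM of Scd1, Scd2, Scd3 and Scd4 (vertical axis, log scale) in each line, 1 point per library, with bars for the 95% counting interval. Scd1 is above Scd2 in FLAG and sh-CACUL1 and below it in FLAG-CACUL1 and sh-Luc, and Scd3 tracks Scd1 at under 1% of its level.

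The enzymes that build palmitate did not share the pattern of Scd1. Fasn (NM_007988), on the minus strand of chromosome 11 from 120805846 to 120824547, had 16.8 FPKM in FLAG, 20.4 FPKM in FLAG-CACUL1, 36.9 FPKM in sh-Luc and 89.5 FPKM in sh-CACUL1. Both hairpin lines were above both FLAG lines. On the log2 scale FLAG-CACUL1 was 0.27 from FLAG, and sh-CACUL1 was 1.25 from sh-Luc, where the ratio of FPKM was 2.42. In FLAG, the line with the highest Scd1, Fasn was at its lowest, and Scd1 was 114 times Fasn. In FLAG-CACUL1 and sh-Luc the pair was about equal, at 0.980 and 0.984 times, and in sh-CACUL1 Scd1 was 9.58 times Fasn.

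Acaca (NM_133360), on the plus strand of chromosome 11 from 84129672 to 84401651, encodes the cytosolic carboxylase that makes malonyl-CoA. It had 9.37 FPKM in FLAG, 10.2 FPKM in FLAG-CACUL1, 11.4 FPKM in sh-Luc and 18.4 FPKM in sh-CACUL1. The order of lines was that of Fasn, over a smaller range. Its log2 fold changes were 0.12 (FLAG-CACUL1) and 0.65 (sh-CACUL1), the latter 1.09 after scaling. The ratio of Fasn to Acaca differed between the lines, from 1.79 times in FLAG to 4.85 times in sh-CACUL1.

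Acly (NM_134037 and NM_001199296), on the minus strand of chromosome 11 from 100476353 to 100528000, varied least along with Acaca and Elovl5. It had 41.3 FPKM in FLAG, 26.2 FPKM in FLAG-CACUL1, 54.5 FPKM in sh-Luc and 43.8 FPKM in sh-CACUL1. FLAG-CACUL1 was the lowest line and sh-Luc the highest. The log2 fold changes were -0.64 and -0.31, both under the cut-off. Me1 (NM_001198933 and NM_008615), on the minus strand of chromosome 9 from 86581371 to 86695953, had 33.0 FPKM in FLAG, 25.3 FPKM in FLAG-CACUL1, 25.2 FPKM in sh-Luc and 54.2 FPKM in sh-CACUL1. sh-CACUL1 was the highest, and FLAG-CACUL1 and sh-Luc were within their counting intervals of each other. The log2 fold changes of Me1 were -0.37 (FLAG-CACUL1) and 1.08 (sh-CACUL1).

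The elongases went separate ways. Elovl5 (NM_134255), on the plus strand of chromosome 9 from 77917364 to 77984519, had 43.9 FPKM in FLAG, 23.6 FPKM in FLAG-CACUL1, 23.0 FPKM in sh-Luc and 38.0 FPKM in sh-CACUL1. FLAG and sh-CACUL1 were high and the other lines low, as for Scd1, but the range was 1.91-fold. Its log2 fold changes of -0.87 and 0.70 lay under the cut-off and reached -1.001 and 1.16 after scaling. Elovl6 (NM_130450), on the plus strand of chromosome 3 from 129532355 to 129638495, had 3.36 FPKM in FLAG, 5.02 FPKM in FLAG-CACUL1, 13.3 FPKM in sh-Luc and 4.36 FPKM in sh-CACUL1. sh-Luc alone was high. In FPKM, sh-CACUL1 was 3.05-fold below sh-Luc, with a log2 fold change of -1.42, or -1.003 after scaling and -0.97 after quantile normalization. Set against FLAG, Elovl6 in sh-CACUL1 was at a log2 fold change of 0.30.

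Srebf1 (NM_011480), on the minus strand of chromosome 11 from 60199089 to 60222581, was measured as 1 row, so the isoforms SREBP1a and SREBP1c are not separated. It had 31.0 FPKM in FLAG, 12.2 FPKM in FLAG-CACUL1, 24.2 FPKM in sh-Luc and 46.9 FPKM in sh-CACUL1. FLAG-CACUL1 was the lowest line and sh-CACUL1 the highest. Its log2 fold changes were -1.27 (FLAG-CACUL1) and 0.92 (sh-CACUL1), the latter 1.38 after scaling. Between the controls Srebf1 differed little (0.34), although Scd1 did so by 5.68.

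**Figure D4:**
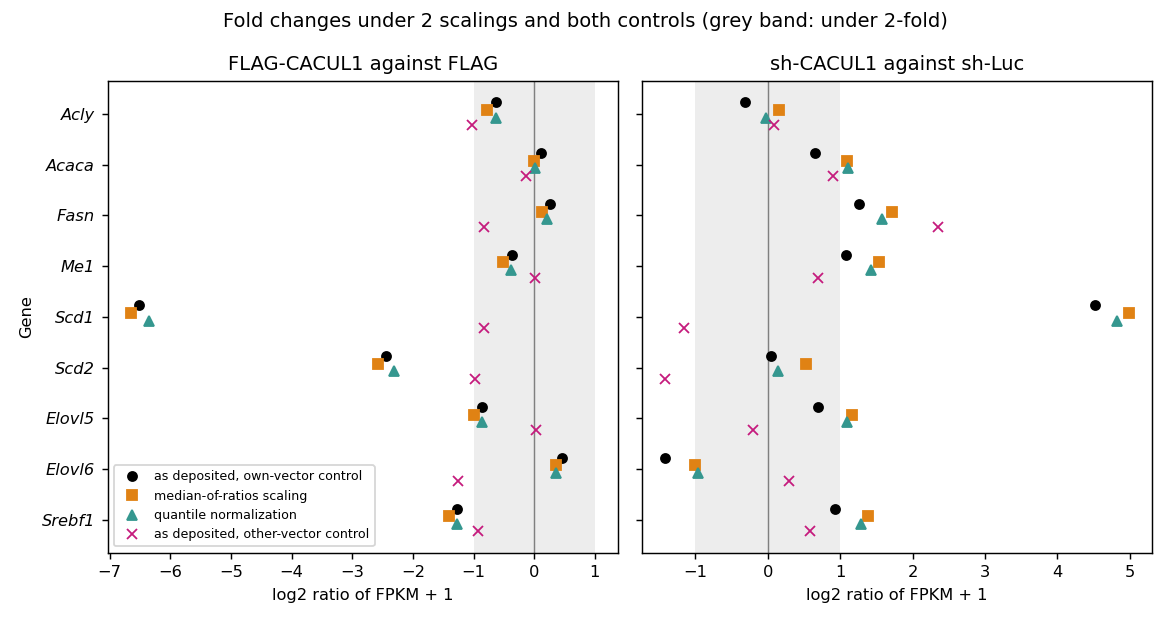
Log2 ratio of FPKM + 1 (horizontal axis) for each gene in FLAG-CACUL1 (left) and sh-CACUL1 (right), as deposited, under 2 other scalings and against the control with the other vector, with changes under 2-fold in grey. Scd1 in sh-CACUL1 is at 4.52 against sh-Luc and at -1.16 against FLAG.

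Promoter windows from RefSeq (GRCm38.p6, 250 bases before to 50 after the start site) were found for 7 of the 9 genes, in 10 windows. Scd1 and Scd2 had no entry. The windows of Fasn and Elovl6 are shown because these genes lay on opposite sides of their control in sh-CACUL1. Capitals mark matches, on both strands, to the E-box CACGTG, the CCAAT box, the GC box GGGCGG or TCACNCC, the core of a sterol regulatory element. They lie at chr11:120824498-120824797 (minus strand) and chr3:129532136-129532435 (plus strand).
Fasn: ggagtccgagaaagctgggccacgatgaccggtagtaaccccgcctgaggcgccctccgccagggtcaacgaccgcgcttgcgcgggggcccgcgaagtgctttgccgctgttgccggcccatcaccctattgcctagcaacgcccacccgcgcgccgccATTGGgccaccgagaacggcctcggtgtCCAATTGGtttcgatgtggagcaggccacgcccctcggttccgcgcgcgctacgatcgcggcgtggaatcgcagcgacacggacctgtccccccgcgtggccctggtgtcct
Elovl6: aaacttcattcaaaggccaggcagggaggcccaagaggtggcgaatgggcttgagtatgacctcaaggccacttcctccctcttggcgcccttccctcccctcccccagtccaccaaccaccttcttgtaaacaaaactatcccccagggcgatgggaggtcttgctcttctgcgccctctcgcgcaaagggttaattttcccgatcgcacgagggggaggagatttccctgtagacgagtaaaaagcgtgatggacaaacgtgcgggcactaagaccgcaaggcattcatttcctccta
The Fasn window held 3 CCAAT matches, 90, 62 and 59 bases before the start site, of which the last 2 overlap on opposite strands. The Elovl6 window held no match to any of the 4. A CCAAT match was found for Fasn, Acly, Elovl5, Me1 and Srebf1, and in 37.4% of all 32851 windows of this length. GGGCGG was found for Acly, Me1 and Srebf1 (35.7% of all windows) and CACGTG for Elovl5 (7.15%). TCACNCC was found in none of the 10 windows and in 15.6% of all windows. These are matches of letters in a short window and do not bear on binding.

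The controls were themselves far apart for several of the genes. FLAG and sh-Luc differed at least 2-fold for 4 of the 9 genes, with Scd1 (5.68) and Scd2 (1.47) higher in FLAG and Fasn (-1.09) and Elovl6 (-1.72) lower. Of all genes 8.58% were higher and 12.4% lower. After scaling Fasn was under the cut-off (-0.81) and Elovl5 passed it (1.18), where 12.0% of all genes were higher and 7.16% lower. Vector, selection drug and line cannot be told apart in this difference. Set against sh-Luc, FLAG-CACUL1 was lower by a log2 fold change of -0.83 for Scd1, -0.97 for Scd2 and -0.93 for Srebf1, all under the cut-off. Only Acly (-1.03) and Elovl6 (-1.25) passed it, both downward, where 4.87% of all genes were lower and 5.04% higher. After scaling only Elovl6 did (3.41% and 6.02% of all genes). Set against FLAG, sh-CACUL1 was lower for Scd1 (-1.16) and Scd2 (-1.41) and higher for Fasn (2.35), where 15.4% of all genes were lower and 7.45% higher. After scaling Scd1 was just under the cut-off (-0.98), Scd2 (-1.24) and Fasn (2.53) passed it, and so did Acaca (1.08), where 12.8% of all genes were lower and 10.4% higher. The direction of Scd1 in sh-CACUL1 thus depended on which control was used, and that of Fasn did not.

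Among the genes around these 9, those that supply citrate and acetyl-CoA had the most members past the cut-off in sh-CACUL1, against its own control. Of 9 genes in this list, 5 passed the cut-off downward in FLAG-CACUL1 and 0 upward, with a median log2 fold change of -1.04, against 7.22% lower and a median of 0.09 over all genes. Set against sh-Luc instead, 2 passed downward and the median was 0.025, so the direction depended on the control. In sh-CACUL1 7 of the 9 were higher (8 after scaling) and 0 lower, with a median of 1.33, against 4.94% higher and a median of -0.30 over all genes. Set against FLAG, 2 were higher and 1 lower, with a median of 0.38. Slc25a1, the mitochondrial citrate carrier, had 241 FPKM in FLAG, 96.1 FPKM in FLAG-CACUL1, 81.7 FPKM in sh-Luc and 206 FPKM in sh-CACUL1. Pcx, pyruvate carboxylase, which refills the citrate cycle, had 216, 29.8, 84.3 and 350 FPKM in the same order of lines, and Acss2, which makes acetyl-CoA from acetate, had 35.2, 6.82, 4.03 and 16.1 FPKM. Cs, citrate synthase, varied little, from 102 to 125 FPKM.

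Of 12 genes of NADPH supply 3 (H6pd, Tkt and Me2) were lower in FLAG-CACUL1, where 7.22% of all genes were, and 4 were after scaling (8.93% of all genes). In sh-CACUL1 1 (Taldo1) was higher as deposited, where 4.94% of all genes were, and 5 were after scaling (9.41%). The medians were -0.12 and 0.38. G6pdx, the entry enzyme of the pentose phosphate pathway, stayed between 28.8 and 45.2 FPKM. Me2, a mitochondrial relative of Me1, had 91.9 FPKM in FLAG and between 9.57 and 15.8 FPKM in the other lines, unlike Me1.

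The list of other desaturases and their electron donors had 8 measured genes. In FLAG-CACUL1 4 were lower (Scd3, Fads1, Fads2 and Fads3), where 7.22% of all genes were, and 5 were after scaling (8.93%). In the same comparison 1 was higher (Cyb5a), where 7.51% of all genes were. In sh-CACUL1 2 were higher (Scd3 and Cyb5a) and 1 lower (Fads3) as deposited, where 4.94% and 16.4% of all genes were. After scaling 4 were higher and 1 lower, where 9.41% and 7.45% of all genes were. Set against FLAG instead, Scd3 was lower in sh-CACUL1 (-1.42), Cyb5a was still higher and the list median was negative. The direction of this list in sh-CACUL1 thus depended on the control. Fads1 and Fads2, which desaturate polyunsaturated fatty acids, were highest in FLAG, at 146 and 125 FPKM, and lay between 38.7 and 71.2 FPKM in the other lines. Cyb5a, cytochrome b5, which passes electrons to the desaturases, was higher than its control in both comparisons (1.58 and 1.18). Of the 8 measured genes of the elongation cycle, 2 were lower in FLAG-CACUL1 (Hacd2 and Tecr), where 7.22% of all genes were. After scaling 3 were lower, where 8.93% of all genes were. As deposited 1 was higher (Elovl4, at 1.88 FPKM, which after scaling was under the cut-off), where 7.51% of all genes were. In sh-CACUL1 Hsd17b12, the ketoacyl reductase of the cycle, and Hacd2, a dehydratase, were higher, where 4.94% of all genes were. Hacd4 was lower, where 16.4% of all genes were. After scaling 3 were higher and 1 lower, where 9.41% and 7.45% of all genes were. Set against sh-Luc, 0 genes of the NADPH, desaturase, elongation and transcription factor lists passed the cut-off downward in FLAG-CACUL1. Of all genes 4.87% did, and smaller decreases were present in these lists. Elovl2, Elovl3 and Elovl7 were not among the rows.

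Of the lipogenic transcription factors, 9 of 10 had a row, and Pparg and Cebpa are adipocyte markers too. In FLAG-CACUL1 3 were lower (Nr1h3, Pparg and Cebpa), where 7.22% of all genes were. In sh-CACUL1 these 3 and Rxra were higher, where 4.94% of all genes were, and Srebf2 was lower, where 16.4% were. Set against sh-Luc, Nr1h3 passed the cut-off upward in FLAG-CACUL1, where 5.04% of all genes did. Cebpa was higher and Pparg lower there, both under the cut-off. Set against FLAG, Cebpa passed the cut-off downward in sh-CACUL1 and Nr1h3 and Rxra upward, where 15.4% and 7.45% of all genes did. Pparg was slightly lower, at 61.8 FPKM against 70.1 FPKM in FLAG. Nr1h3, the oxysterol receptor LXRα, which activates Srebf1, had 14.5 FPKM in FLAG, 4.04 FPKM in FLAG-CACUL1, 1.03 FPKM in sh-Luc and 42.2 FPKM in sh-CACUL1. Srebf2, the sterol-responsive relative of Srebf1, had 42.0, 25.7, 47.4 and 20.8 FPKM in the same order, a log2 fold change of -1.15 in sh-CACUL1, and was under the cut-off after scaling. Of 6 genes of SREBP processing, Insig1, which holds SREBP in the endoplasmic reticulum, was lower in FLAG-CACUL1 (-2.12) and higher in sh-CACUL1 (1.35). Insig2 was lower in FLAG-CACUL1 (-1.46), where 7.22% of all genes were. Mbtps1, a protease that cleaves SREBP, was lower in sh-CACUL1 (-1.30) as deposited but not after scaling. As deposited 4.94% of all genes were higher in sh-CACUL1 and 16.4% lower. With the other control Insig1 kept both directions, whereas Insig2 and Mbtps1 reversed, both under the cut-off. The Insig2 level of FLAG-CACUL1, 20.7 FPKM, exceeded the 15.3 FPKM of sh-Luc. For Mbtps1, sh-CACUL1 at 25.3 FPKM was above FLAG at 21.9 FPKM.

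Among regulators of acetyl-CoA carboxylase, 3 of 10 were lower in FLAG-CACUL1 (Thrsp, Prkab2 and Brca1), where 7.22% of all genes were. Prkab2 had 17.3 FPKM in FLAG, 3.19 FPKM in FLAG-CACUL1 and 3.88 FPKM in sh-Luc. Brca1 was low, with 2.29, 0.546 and 1.84 FPKM in those lines. With sh-Luc as the control, only Thrsp of the 3 passed the cut-off. Against FLAG 1 was higher in FLAG-CACUL1 (Mid1ip1), where 7.51% of all genes were. In sh-CACUL1 Thrsp and Mlycd, malonyl-CoA decarboxylase, were higher, where 4.94% of all genes were. Prkab1, a subunit of the kinase AMPK, was lower (-1.12) as deposited, where 16.4% of all genes were, but not after scaling. Its 8.93 FPKM in sh-CACUL1 was above the 7.38 FPKM of FLAG. Thrsp, a lipogenic protein known as Spot14, had 32.8 FPKM in FLAG, 0.859 FPKM in FLAG-CACUL1, 7.52 FPKM in sh-Luc and 564 FPKM in sh-CACUL1. Its log2 fold changes were -4.19 and 6.05, the widest of any gene in these lists in sh-CACUL1. Mid1ip1, its relative, which promotes polymerization of the carboxylase, had 9.61, 25.5, 20.5 and 16.3 FPKM, with the lowest value in FLAG. Acacb, the mitochondrial carboxylase isoform, stayed between 1.31 and 2.32 FPKM. Mitochondrial fatty acid synthesis is a separate pathway that makes the lipoic acid precursor. Of its 8 measured genes 0 passed the cut-off in FLAG-CACUL1, where 7.22% of all genes were lower and 7.51% higher. For so few genes that count is near those shares. Higher in sh-CACUL1 were 2 (Mecr and Ndufab1), where 4.94% of all genes were. After scaling 4 of the 8 were higher, where 9.41% of all genes were.

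**Figure D5:**
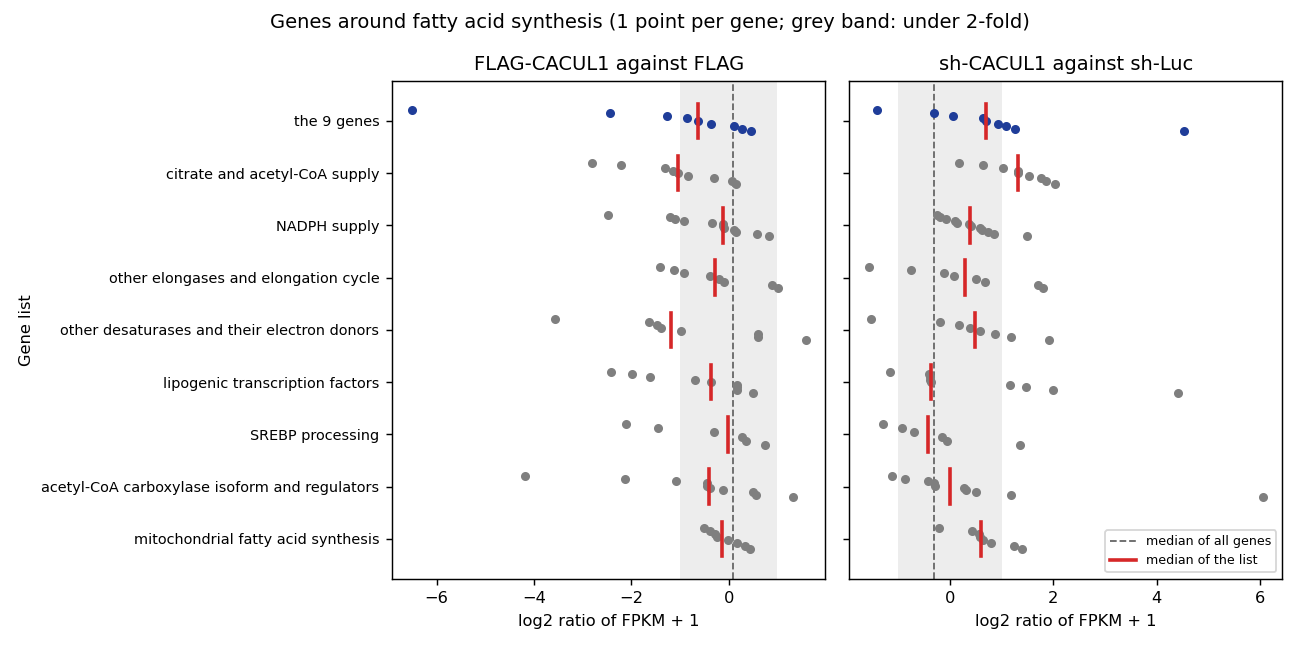
Log2 ratio of FPKM + 1 (horizontal axis) of each gene in the 9 genes and 8 surrounding lists, for FLAG-CACUL1 (left) and sh-CACUL1 (right). Red bars are list medians and the dashed line is the median of all genes, at 0.09 and -0.30. The citrate and acetyl-CoA list has its median at -1.04 on the left and 1.33 on the right.

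Likeness of pattern was measured as the distance between log2(FPKM + 1) profiles over the 4 lines, each centred on its own mean, over the 9563 genes that reached 1 FPKM in every line. The 4 points share no replicate, so the likeness is a description. Nearest to Scd1 were G0s2 (distance 1.30), Cfd (1.82) and Ltc4s (2.14), and G0s2, an inhibitor of adipose triglyceride lipase, had 133 FPKM in FLAG, 3.24 FPKM in FLAG-CACUL1, 4.14 FPKM in sh-Luc and 60.4 FPKM in sh-CACUL1. Nearest to Scd2 were Mettl26 (0.26), Acsl3 (0.30) and Arl6ip1 (0.40). Nearest to Fasn were Akap8l (0.35), Gcsh (0.36) and Hoxd4 (0.37), and nearest to Srebf1 were Ermp1 (0.11), Isca2 (0.11) and Mtus1 (0.19). Among the 9 genes the closest pair was Acaca and Me1 (0.49), and Scd1 lay at least 4.28 from each of the others, with Scd2 the nearest.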

How the data were processed

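RNA-seq covered 4 samples, 1 per line. A company prepared and sequenced the mRNA libraries, and the authors deposited FPKM values for 13110 rows of RefSeq transcripts per sample. The build is mm10 per the submitters' processing notes. Aligner, counter and filters are not given in the sources used here. Rows were joined to GENCODE M21 symbols (GRCm38) and summed to 13085 genes. A symbol was missing for 196 rows. Fold changes used a pseudocount of 1 FPKM and the study's 2-fold cut-off, and with 1 sample per group no test was made. Fragments per sample were estimated from the spacing of FPKM times length, using single-transcript rows from 3000 bases upward, and 95% intervals are exact Poisson intervals of such estimates. The genes and lists were chosen with earlier results of these data known. All 9 genes are named, with genes past 2-fold or least changed in each list, with Acacb as the isoform of Acaca, and the 3 nearest genes to Scd1, Fasn, Scd2 and Srebf1. There were 9 alternatives. Python 3.11.15, numpy 2.4.6, pandas 2.3.3, scipy 1.17.1, biopython 1.88 and matplotlib 3.10.9 were used, and the scripts were tested on simulated data. The list of cholesterol synthesis genes is not reported here.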

Additional observations from a re-analysis of the deposited data

How the results depend on the processing

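No paired analysis was possible because each line has 1 sample, so the shared number 1 pairs no replicates, and none could be left out. Pseudocounts of 0.1 or none, filters at 1 FPKM in any or all samples, and the row with the highest mean in place of the sum changed no call of the 9 genes. In sh-CACUL1 the count of higher genes, 3 as reported, was 6 after quantile normalization, 6 after median-of-ratios scaling, 1 against the other control and 1 at 3-fold. Of all genes 4.94% were higher as reported, 9.41% after median-of-ratios scaling and 7.45% against the other control. The count of lower genes, 1 as reported, was 0 after quantile normalization, 2 against the other control and 0 at 3-fold. Of all genes 16.4% were lower as reported and 15.4% against the other control. For quantile normalization and 3-fold no share of all genes is given here, so those counts show only which calls changed. The median log2 value of the 9 genes in sh-CACUL1 was 1.10 after quantile normalization, 1.16 after median-of-ratios scaling and 0.30 against the other control. In FLAG-CACUL1 that median was -0.77 after median-of-ratios scaling and -0.83 against the other control. The count of lower genes was between 2 and 4, but the genes differed. Of all genes 7.22% were lower as reported, 8.93% after median-of-ratios scaling and 4.87% against the other control. Against the other control the lower genes were Acly and Elovl6, and Scd1, Scd2 and Srebf1 were no longer called. Against the other control, of the genes called in sh-CACUL1, Scd1 (-1.16) and Elovl6 (0.30) reversed. Genes under the cut-off against their own control also changed sign, namely Acly (0.08), Scd2 (-1.41) and Elovl5 (-0.20) in sh-CACUL1, and Acaca (-0.14), Fasn (-0.83), Me1 (0.0056), Elovl5 (0.035) and Elovl6 (-1.25) in FLAG-CACUL1. Among list medians past the cut-off against their own control, the other control reversed some in FLAG-CACUL1 and none in sh-CACUL1. Those reversed were the citrate and acetyl-CoA list (0.025), the other desaturases and electron donors (0.11) and the 2 macrophage markers (0.32). Smaller medians changed sign too, among them that of the NADPH list in both comparisons. So did those of the lipogenic transcription factors in FLAG-CACUL1 and of the other desaturases and electron donors in sh-CACUL1. The causes were not tested. Counting error was small beside these shifts, and the spread between cultures is unknown.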
